A study of Mus musculus with 12 samples.

Results

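The genes described here encode the ADAMTS and ADAMTS-like proteins, the matrix metalloproteinases (MMPs) and the tissue inhibitors of metalloproteinases (TIMPs), measured by RNA-seq in mouse small cell lung cancer treated with entinostat and an antibody against PD-1. A rule on the gene symbol gave 51 of the 22738 rows of the count table: 19 ADAMTS, 5 ADAMTS-like, 23 MMP and 4 TIMP genes. Of these, 47 had enough counts to be tested. The other 4 were Mmp1a, with 0 counts in every library, Mmp1b, with at most 4 counts in any library, and Mmp7 and Mmp20, with at most 2. Mmp1a and Mmp1b are close copies of each other, so reads could be shared between them, and neither was detectable at this depth.

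Every tumour came from the same engineered model, with the alleles Rb1 fl/fl, p53 fl/fl and Myc lsl/lsl T58A. Instilling Ad5CGRP-Cre into the trachea, in which the CGRP promoter limits Cre to neuroendocrine cells, deletes Rb1 and p53 and switches on the mutant Myc; the protocol gives an age of 8 weeks at induction for a first cohort. The 4 groups of 3 libraries share these alleles and this virus. Tumour-bearing mice received no active agent (control), entinostat by mouth at 15 mg/kg daily for 28 days, anti-PD-1 antibody at 10 mg/kg by intraperitoneal injection for 4 weeks, or both agents (combination). Methylcellulose vehicle and a rat IgG2a isotype antibody were the controls of the study, and the labels do not tell which of them the control libraries received. Entinostat inhibits class I histone deacetylases, and PD-1 is an inhibitory receptor of T cells. Whether each library came from a separate mouse is not stated, so a p-value here measures only how these samples spread, which may be technical.

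ADAMTS proteins are secreted zinc proteases with thrombospondin repeats that bind them to extracellular matrix. One branch removes the amino-terminal propeptide of fibrillar procollagens, a step needed for fibril assembly, and another cleaves large proteoglycans such as versican and aggrecan. ADAMTS-like proteins share the ancillary domains but lack the protease domain, and several bind the microfibrils built from fibrillin. MMPs are a separate zinc protease family that degrades collagens, gelatin, elastin and basement membrane, some as secreted proenzymes and some tethered to the cell surface. TIMPs block the active site of MMPs, and Timp3 also blocks several ADAM and ADAMTS proteases. In lung tumours these genes are made largely by fibroblasts, vessel wall cells and leukocytes as well as by the tumour cells themselves.

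Total counts per library lay between 31295987 and 54001886, and the 51 genes took between 0.0333% and 0.0778% of them. The structural RNAs Rn45s, Rpph1 and Rmrp took 7.84% to 36.4% of counts per library, most in anti-PD-1 replicate 2. Markers of the labelled tumour type, such as Calca and Uchl1, were above 0 in every library, as were all fibroblast, mural, endothelial and macrophage markers checked. Control replicate 1 stood apart: its alveolar epithelium score (the mean log2 CPM of 13 markers, where CPM is the count scaled to a common library size) was -1.27 against 0.50 or more in the other 11 libraries, and 3 of those markers were at 0. The library also held the lowest fibroblast, macrophage and neutrophil scores. It held the lowest value of 18 of the 47 tested genes as well, though the share of all genes lowest there was not computed. In bulk tissue, fewer cells of a type and less RNA per cell cannot be told apart.

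In the main edgeR fit, every one of these genes that passed in any comparison also passed for entinostat. Over all 4 groups, with 6 libraries given entinostat set against 6 not given it (the main effect of entinostat, averaged over its effect alone and on top of the antibody), 9 of 47 tested genes rose and 2 fell at an adjusted p below 0.05. Across all 17426 genes tested, 10.6% passed in this comparison, 3.87% higher and 6.74% lower. The median log2 fold change of the 47 was 0.79, beside 0.02 over all genes, and 39 of the 47 (83.0%) lay above 0 against 51.3% of all genes. All 6 libraries with entinostat lay above all 6 without it for 5 of the 47, beside 2.01% of all genes. They lay below for 1 of the 47, beside 2.32% of all genes. The genes that rose were Adamts14, Adamts3, Mmp8, Adamtsl5, Adamts9, Adamtsl1, Adamts20, Adamts6 and Adamts4, and those that fell were Adamts18 and Mmp15. Upper quartile scaling moved the median of all genes to 0.15 and that of the 47 to 0.92, and 11 genes passed there as well.

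**Figure D1:**
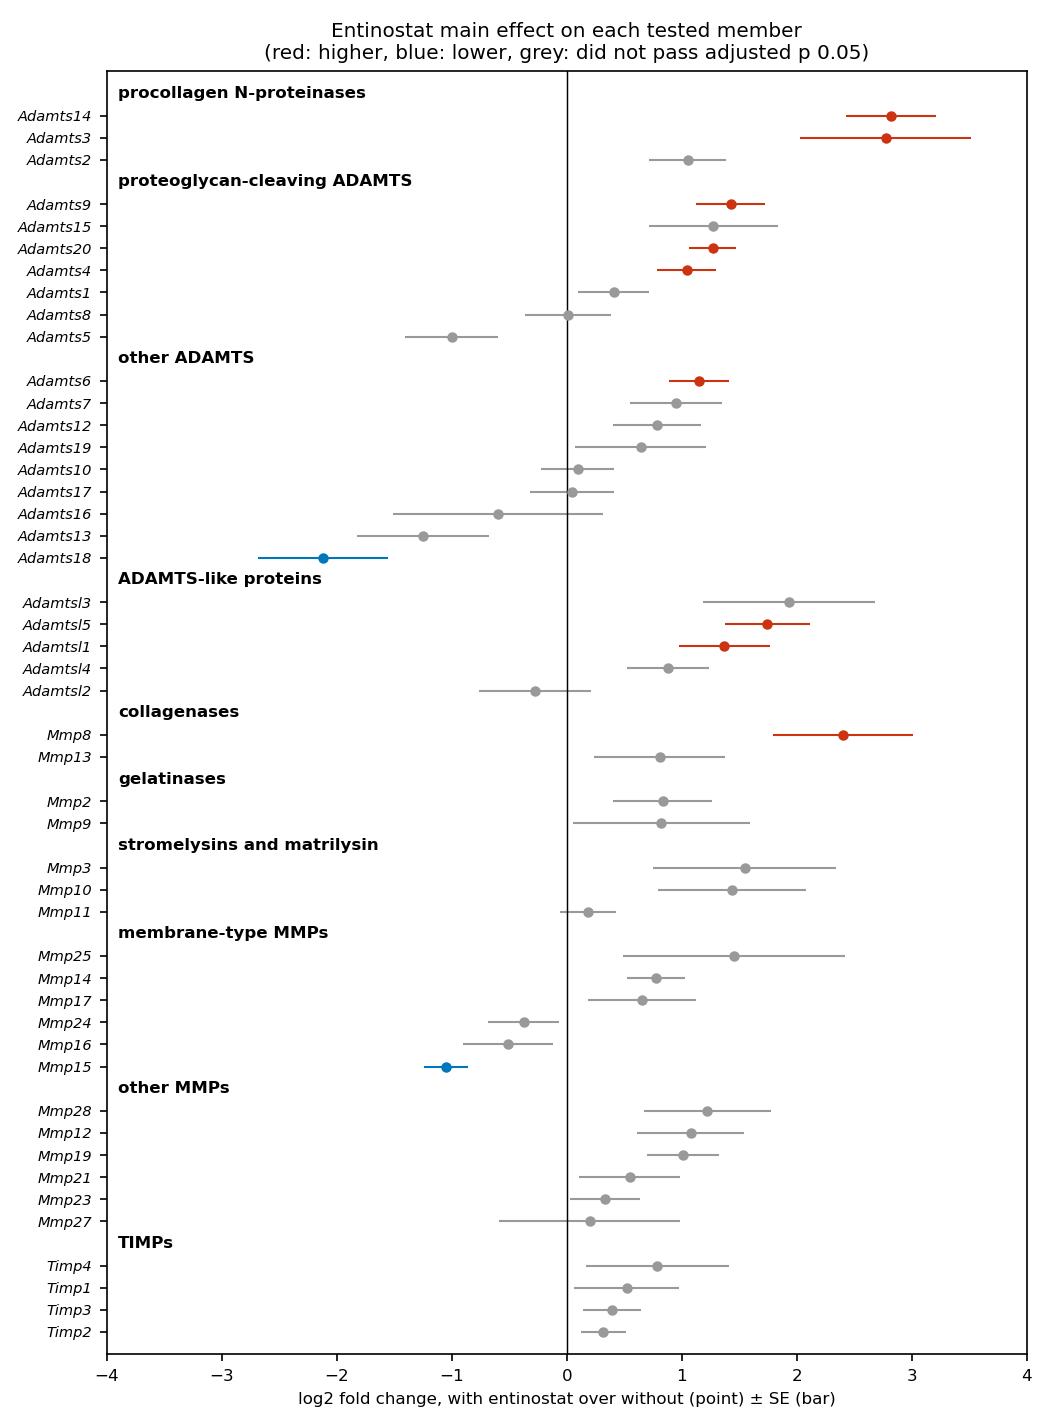
Log2 fold change of each of the 47 tested genes with entinostat over without (x axis), as points with the standard error as bars, ordered by role. Red points are the 9 genes that rose, blue the 2 that fell, and grey those that did not pass an adjusted p of 0.05; Adamts14 and Adamts3 lie farthest to the right and no TIMP passed.

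Fits with a marker score as a covariate kept fewer of these calls. The alveolar score ran from 1.97 to 5.17 with entinostat and from -1.27 to 4.61 without, and the fibroblast score was 4.75 ± 0.42 and 4.09 ± 0.58 (SD, n = 6 each). With the alveolar score as a covariate 1 gene passed (Adamts14). With the fibroblast score 4 genes passed: Adamts14, Adamts20, Mmp15 and Adamtsl3, the last of which did not pass without it. The share of all genes passing in these fits is not given, so a loss particular to these genes cannot be told from a general one. The fold changes themselves stayed near those without a covariate for some of the 11. With the alveolar and the fibroblast covariate they were 1.13 and 1.38 for Adamts20, 1.23 and 1.31 for Adamts6, and 1.19 and 0.86 for Adamts4. For Mmp15 they were -0.96 and -1.04, and for Adamts18 -2.09 and -2.01. Smaller fold changes were found for Mmp8 (1.42 and 1.82), Adamts9 (1.11 and 0.96) and, with the fibroblast covariate, Adamtsl1 (0.75). Over all alternative fits, these covariates included, values ran from 2.52 to 3.27 for Adamts14 and from 2.26 to 3.7 for Adamts3. For Adamtsl5 they ran from 1.26 to 1.89. Leaving out single libraries gave between 4 and 11 genes: 4 without combination replicate 1, 6 without anti-PD-1 replicate 3, entinostat replicate 1 or 3 or combination replicate 3, and 7 without anti-PD-1 replicate 1 or entinostat replicate 2. These counts include some genes outside the 11, such as Adamts12 and Adamtsl4 without anti-PD-1 replicate 2. Of the 11, Adamtsl1 passed in none of these fits, and Adamts14, Adamts20, Adamtsl5 and Mmp15 passed in all 12. Their highest edgeR adjusted p there was 0.0234, 0.028, 0.0499 and 0.0346 in this order, so Adamtsl5 passed narrowly. In GENCODE vM21 (GRCm38), Adamts14 lies at chr10:61197112-61273438 on the minus strand, Adamts20 at chr15:94270163-94465418 on the minus strand, Adamtsl5 at chr10:80339110-80348412 on the minus strand and Mmp15 at chr8:95352268-95375080 on the plus strand.

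Of the 3 procollagen N-proteinases 2 rose, with the largest log2 fold changes of the 47 genes. Adamts14, which removes the amino propeptide of fibrillar procollagens, stood at 0.61, 0.41 and 0.99 CPM in the control libraries, 1.27, 1.59 and 1.96 with anti-PD-1, 9.34, 4.54 and 2.81 with entinostat and 12.9, 5.48 and 10.7 with the combination. Every library with entinostat was above every library without it, and the anti-PD-1 libraries also lay above the controls. Its main-effect log2 fold change for entinostat was 2.82 (SE 0.39, edgeR adjusted p = 0.00629), and it passed in each of the 12 fits that left out 1 library and in each of the 9 other alternatives. Adamts3, which acts on procollagen and on the lymphatic growth factor VEGF-C, read 0, 0.33 and 0.08 CPM in the controls and 0.57, 0.28 and 0.60 with anti-PD-1. Its entinostat libraries read 3.08, 0.88 and 0.61 CPM and its combination libraries 1.60, 1.66 and 2.97, so the groups with and without entinostat met closely at 0.60 and 0.61 without overlapping. Adamts3 rose by a log2 fold change of 2.77 (SE 0.74, adjusted p = 0.0373) on low counts, with 0 reads in 1 control and at most 140 in any library. That call held in 2 of the 12 leave-one-out fits.

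Adamts2, the most abundant of the 3 per length and the enzyme whose loss causes dermatosparaxis, did not pass. Its control libraries read 3.11, 4.51 and 7.24 CPM, its anti-PD-1 libraries 14.1, 7.09 and 3.17, its entinostat libraries 14.3, 12.7 and 12.1, and its combination libraries 13.3, 15.1 and 11.4. One anti-PD-1 library reached the level of the entinostat libraries, and the other 5 without entinostat lay below all 6 with it. The log2 fold change was 1.05 (SE 0.33, adjusted p = 0.0651), and DESeq2 gave an adjusted p of 0.0166.

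**Figure D2:**
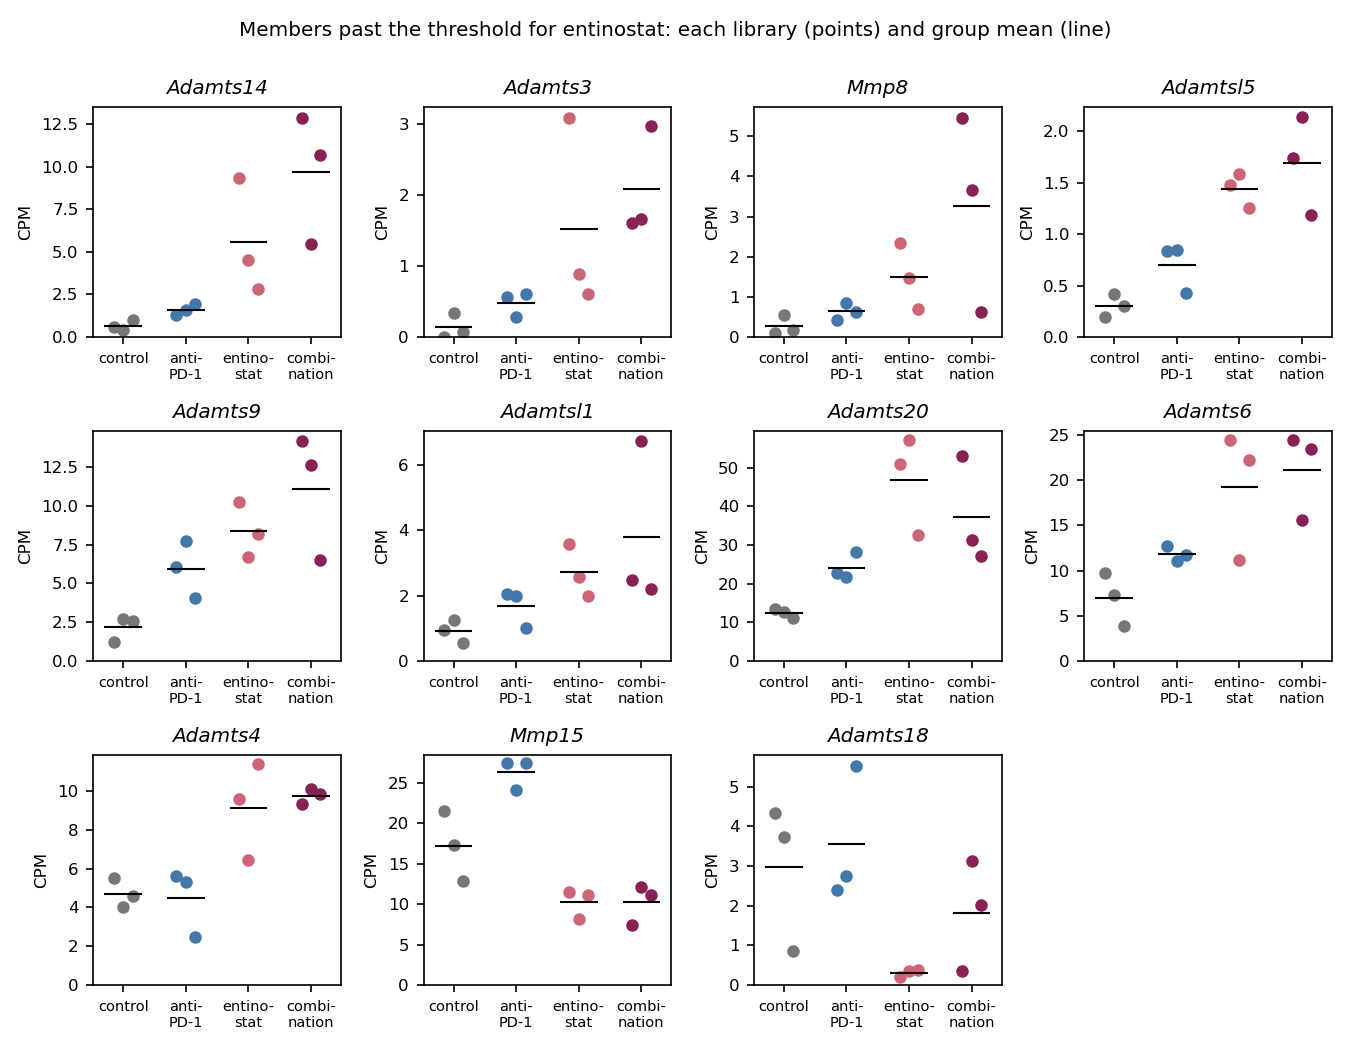
CPM of the 11 genes that passed for entinostat, with a point per library and a line at the group mean, in control, anti-PD-1, entinostat and combination tumours. Adamts14, Adamts3, Adamtsl5 and Adamts4 were higher in every library with entinostat than in any without, Mmp15 was lower in every one, and the other panels overlap. Of all tested genes, 2.01% were higher and 2.32% lower in this way.

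Promoters of these genes ranged from CpG-rich to CpG-poor. Those of 3 genes that rose and of 2 MMP genes of chromosome 9 that did not pass are shown, picked to show both kinds. RefSeq promoters (build GRCm38.p6) were found for 36 of the 51 genes, 39 promoters in all. The 250 bases before the start of transcription are printed 5′ to 3′ on the strand of the gene, with matches to the searched motifs in capitals. Adamts14 (chr10:61273420-61273669, minus strand) carries 6 matches to the GC box GGGCGG or its complement CCGCCC, the site bound by Sp factors. Adamts3 (chr5:89883335-89883584, minus strand) carries 1. The Adamts20 window (chr15:94404351-94404600, minus strand) lies inside the gene's GENCODE span of chr15:94270163-94465418, so it precedes an internal start. It carries 3 GC boxes and a CCAAT box read as ATTGG. Mmp13 (chr9:7272264-7272513, plus strand) and Mmp3 (chr9:7445572-7445821, plus strand) carry instead an AP-1 site, TGACTCA or TGAGTCA, and a TATA box, TATAAA.
Adamts14: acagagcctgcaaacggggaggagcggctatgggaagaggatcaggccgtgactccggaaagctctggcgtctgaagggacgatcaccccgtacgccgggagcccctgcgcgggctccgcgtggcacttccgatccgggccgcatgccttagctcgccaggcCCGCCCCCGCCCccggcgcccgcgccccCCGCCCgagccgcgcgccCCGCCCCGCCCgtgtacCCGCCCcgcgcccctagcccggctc
Adamts3: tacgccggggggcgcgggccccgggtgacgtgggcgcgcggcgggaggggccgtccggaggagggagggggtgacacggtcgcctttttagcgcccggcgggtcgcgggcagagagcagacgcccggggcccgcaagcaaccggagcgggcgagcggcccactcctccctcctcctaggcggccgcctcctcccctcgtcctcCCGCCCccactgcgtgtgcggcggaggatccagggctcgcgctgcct
Adamts20: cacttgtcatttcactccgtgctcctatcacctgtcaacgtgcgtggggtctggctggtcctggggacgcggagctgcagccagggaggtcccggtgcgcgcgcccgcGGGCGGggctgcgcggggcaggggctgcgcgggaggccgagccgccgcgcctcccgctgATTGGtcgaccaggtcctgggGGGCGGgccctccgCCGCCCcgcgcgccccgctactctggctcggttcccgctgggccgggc
Mmp13: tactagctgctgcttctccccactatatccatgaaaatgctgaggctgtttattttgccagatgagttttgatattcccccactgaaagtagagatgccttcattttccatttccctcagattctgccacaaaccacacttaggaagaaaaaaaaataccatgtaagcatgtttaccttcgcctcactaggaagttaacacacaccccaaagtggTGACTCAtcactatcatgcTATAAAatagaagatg
Mmp3: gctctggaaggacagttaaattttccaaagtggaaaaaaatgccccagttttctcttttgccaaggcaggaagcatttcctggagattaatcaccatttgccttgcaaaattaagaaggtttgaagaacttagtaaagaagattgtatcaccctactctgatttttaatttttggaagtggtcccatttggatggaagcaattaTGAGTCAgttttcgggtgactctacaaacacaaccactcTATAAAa

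In the windows shown the CpG count was 35 in Adamts14, 35 in Adamts3 and 32 in Adamts20, and 1 in each of Mmp13 and Mmp3, beside a median of 6 over all 32851 promoters. CpG-rich windows were not limited to genes that passed: Adamtsl3 had 39, Adamts2 34 and Mmp24 33. A GC box lay in 20 of the 39 promoters of these genes and in 32.7% of all promoters. Among the 8 genes that passed for entinostat and had a promoter in the table, 7 carried it (Adamts14, Adamts18, Adamts20, Adamts3, Adamts9, Adamtsl5 and Mmp15), and 2 of those 7, Adamts18 and Mmp15, had fallen. Mmp8, the eighth, had none of the motifs searched and 4 CpGs. The AP-1 site lay in 7 of the 39 and in 4.46% of all promoters; its carriers were Mmp1a, Mmp1b, Mmp3, Mmp7, Mmp10, Mmp12 and Mmp13, all on chromosome 9. A TATA box lay in 10 of the 39 against 12.4% of all, the CCAAT box (CCAAT or ATTGG) in 8 against 33.8%, the E-box of MYC and MAX (CACGTG) in 2 against 6.02%, and the TEAD site (GGAATG or CATTCC) in 2 against 12.6%. These matches describe the letters of a short window and are not measured binding sites.

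Among the ADAMTS enzymes that cleave proteoglycans, 3 of 7 rose and none fell. Adamts20, a protease of versican needed for pigment cell migration in the embryo, was the most abundant of those 3 per length. It stood at 13.4, 12.7 and 11.1 CPM in the controls and 22.8, 21.6 and 28.1 with anti-PD-1. Its values were 50.9, 57.2 and 32.5 CPM with entinostat and 53.1, 31.3 and 27.0 with the combination. All 9 treated libraries lay above the 3 controls, and 1 combination library fell within the anti-PD-1 range. The log2 fold change for entinostat was 1.27 (SE 0.20, adjusted p = 0.00758), held in all 12 leave-one-out fits.

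Adamts9, a versican-cleaving enzyme of vessels and other tissues, stood at 1.23, 2.69 and 2.58 CPM in the controls, 6.05, 7.76 and 4.05 with anti-PD-1, 10.2, 6.71 and 8.19 with entinostat and 14.2, 12.7 and 6.51 with the combination. Controls were lowest throughout, and the anti-PD-1 and entinostat ranges overlapped. It rose with entinostat by a log2 fold change of 1.42 (SE 0.30, adjusted p = 0.0178). In GENCODE vM21 9.2% of its exonic bases overlap the opposite-strand gene A730049H05Rik, and reads there cannot be told apart, the strand setting of the counting being unknown.

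Adamts4, also called aggrecanase-1, read 5.52, 4.04 and 4.58 CPM in the controls, 5.65, 5.29 and 2.48 with anti-PD-1, 9.61, 6.44 and 11.4 with entinostat and 9.35, 10.1 and 9.85 with the combination. Here the anti-PD-1 libraries overlapped the controls, and each entinostat-treated library lay above all others. Its log2 fold change was 1.04 (SE 0.26, adjusted p = 0.0290), held in 7 of 12 leave-one-out fits. Adamts5, or aggrecanase-2, went the other way without passing: 9.74 ± 6.26 CPM without entinostat and 4.32 ± 2.19 with it (SD, n = 6 each), a fitted ratio of 0.500 (log2 SE 0.40, adjusted p = 0.125). Adamts5 read 12.6, 10.2 and 19.9 CPM with anti-PD-1 alone, above the 2.98, 3.68 and 9.03 of the controls. Adamts1, the neighbour of Adamts5 on chromosome 16, 53.1 kb away with no protein-coding gene between them, had a log2 fold change of 0.41 (SE 0.31, adjusted p = 0.400). The remaining Adamts15 and Adamts8, neighbours 20.1 kb apart on chromosome 9, had values of 1.28 (SE 0.56, adjusted p = 0.156) and 0.01 (SE 0.38, adjusted p = 0.989).

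The other ADAMTS enzymes held 1 gene that rose and 1 that fell among 9. Adamts6, which acts on fibrillin microfibrils and on cell adhesion, stood at 9.77, 7.33 and 3.90 CPM in the controls, 12.7, 11.0 and 11.8 with anti-PD-1, 24.4, 11.2 and 22.3 with entinostat and 24.4, 15.6 and 23.5 with the combination. Only entinostat replicate 2 lay within the range of the anti-PD-1 group. The log2 fold change was 1.15 (SE 0.26, adjusted p = 0.0227), held in 7 of 12 leave-one-out fits.

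Adamts18, a protease of tissue morphogenesis that has been described as silenced by methylation in several carcinomas, fell with entinostat. It read 4.33, 3.73 and 0.86 CPM in the controls, 2.41, 2.75 and 5.53 with anti-PD-1, 0.20, 0.35 and 0.37 with entinostat and 0.34, 3.12 and 2.01 with the combination. All 3 entinostat libraries lay below every library without entinostat, while 2 of the 3 combination libraries lay inside the untreated range. Its log2 fold change was -2.12 (SE 0.57, adjusted p = 0.0375), and the call held in 3 of 12 leave-one-out fits.

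Adamts10, the most abundant ADAMTS gene per length and a binder of fibrillin, had a log2 fold change of 0.09 (SE 0.32, adjusted p = 0.868), and its highest value was 149 CPM in combination replicate 3 against 27.4 to 78.4 elsewhere. Without that library its log2 fold change was -0.27. Adamts13, which cleaves von Willebrand factor and is made mainly in the liver, stood at 1.25 ± 0.69 CPM without entinostat and 0.52 ± 0.28 with it, a log2 fold change of -1.25 that did not pass (SE 0.57, adjusted p = 0.171). Adamts7, Adamts12, Adamts17 and Adamts19 had log2 fold changes between 0.05 and 0.95, none of which passed.

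ADAMTS-like genes rose in 2 of 5 cases. Adamtsl5, a binder of microfibrils, read 0.20, 0.41 and 0.30 CPM in the controls, 0.84, 0.85 and 0.42 with anti-PD-1, 1.47, 1.58 and 1.25 with entinostat and 1.74, 2.14 and 1.18 with the combination. The groups with and without entinostat did not overlap, and the log2 fold change was 1.75 (SE 0.37, adjusted p = 0.0180). Adamtsl1, also called punctin, read 0.96, 1.24 and 0.56 CPM in the controls, 2.04, 1.98 and 1.00 with anti-PD-1, 3.58, 2.58 and 1.99 with entinostat and 2.49, 6.72 and 2.19 with the combination. Its lowest entinostat library lay within the anti-PD-1 range, and the highest value came from combination replicate 2. The log2 fold change of 1.37 (SE 0.40, adjusted p = 0.0484) passed in none of the 12 leave-one-out fits.

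Adamtsl3 spanned the widest range of the ADAMTS-like genes, from 0.10 CPM in control replicate 3 to 26.1 in combination replicate 3. Its log2 fold change of 1.93 did not pass (SE 0.75, adjusted p = 0.113), and DESeq2 gave an adjusted p of 0.0304. Adamtsl4, linked to displaced lenses and to fibrillin assembly, stood at 5.70 ± 3.83 CPM without entinostat and 9.97 ± 2.17 with it (SD, n = 6 each; log2 fold change 0.88, SE 0.36, adjusted p = 0.127). Adamtsl2 was the single ADAMTS-like gene below 0, at -0.27 (SE 0.49, adjusted p = 0.738).

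**Figure D3:**
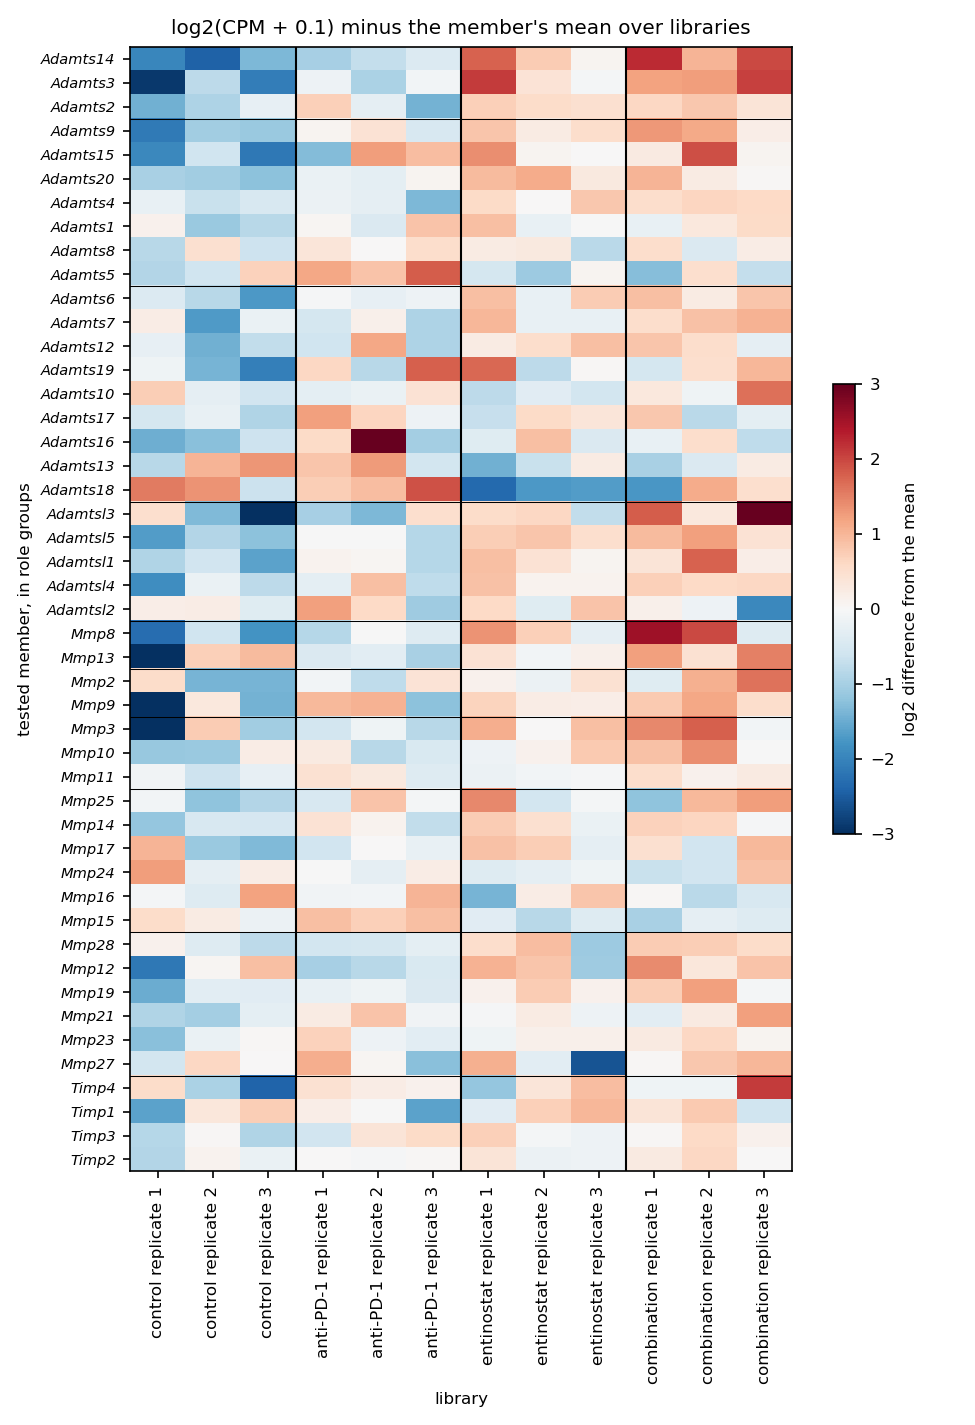
Each row is a tested gene in its role group and each column a library; colour gives log2(CPM + 0.1) minus the gene's mean over the 12 libraries, from -3 (blue) to 3 (red), with values beyond drawn at the end colours. The control columns are mostly blue, most of all in replicate 1, and the 3 combination columns hold the highest value of 5, 9 and 7 of the 47 genes, beside 8.40%, 7.14% and 13.2% of all genes.

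Among the secreted MMPs 1 gene rose. Mmp8, the neutrophil collagenase, read 0.10, 0.54 and 0.18 CPM in the controls, 0.43, 0.85 and 0.63 with anti-PD-1, 2.35, 1.46 and 0.70 with entinostat and 5.46, 3.67 and 0.63 with the combination. Combination replicate 3 and entinostat replicate 3 lay within the anti-PD-1 range, and the other 4 entinostat-treated libraries lay above every library without the drug. The log2 fold change was 2.40 (SE 0.61, adjusted p = 0.0308), held in 5 of 12 leave-one-out fits. Combination replicate 3 also had the lowest neutrophil score of the entinostat-treated libraries, -2.22, and combination replicate 2 the highest of all 12, 1.29. Combination replicate 1, with the most Mmp8 (5.46 CPM), scored -0.34, and anti-PD-1 replicate 2, with 0.85 CPM, scored -0.41. The 6 tested neutrophil markers had a median log2 fold change of 1.29, none of them passing, and up to 3 of 9 were at 0 in a library. The score was -0.52 ± 1.16 with entinostat and -1.50 ± 1.00 without (SD, n = 6 each), and its part in the Mmp8 result was not tested. Mmp13, the main interstitial collagenase of the mouse, stood at 4.26 ± 3.22 CPM without entinostat and 7.53 ± 3.47 with it (log2 fold change 0.81, SE 0.57, adjusted p = 0.366).

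Mmp8 and Mmp13 belong to a run of 10 MMP genes over 427.1 kb of chromosome 9 in GRCm38, with no protein-coding gene between neighbours. Of the 6 tested there, Mmp8 was the only one that passed. Mmp12, the macrophage elastase and the most abundant of the run per length, read 6.46, 30.3 and 54.8 CPM in the controls, 14.4, 16.3 and 21.2 with anti-PD-1, 60.4, 52.2 and 13.8 with entinostat and 78.3, 37.1 and 52.6 with the combination. Each group but anti-PD-1 spread widely, and the log2 fold change of 1.08 did not pass (SE 0.46, adjusted p = 0.148). The macrophage score was 3.72 ± 0.93 with entinostat and 2.65 ± 1.07 without, and its part in these values was not tested. The stromelysins Mmp3 and Mmp10 had log2 fold changes of 1.55 (SE 0.79) and 1.44 (SE 0.65), with adjusted p of 0.218 and 0.164, and Mmp27 of 0.20 (SE 0.79, adjusted p = 0.887).

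Neither gelatinase passed. Mmp2, which degrades gelatin and basement membrane collagen and is made by fibroblasts, stood at 7.17 ± 4.07 CPM without entinostat and 13.2 ± 7.59 with it (log2 fold change 0.83, SE 0.43, adjusted p = 0.221). Without control replicate 1, where it was at its highest of the 6 libraries without entinostat, 12.5 CPM, it passed with a log2 fold change of 1.33 (adjusted p = 0.0491). Mmp9, a product of neutrophils and macrophages, read 0 to 1.84 CPM without entinostat and 0.98 to 2.01 with it (log2 fold change 0.82, SE 0.77, adjusted p = 0.500).

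Membrane-type MMPs contained the second gene that fell. Mmp15, or MT2-MMP, a transmembrane collagenase of epithelia, read 21.5, 17.3 and 12.8 CPM in the controls, 27.4, 24.1 and 27.4 with anti-PD-1, 11.5, 8.20 and 11.2 with entinostat and 7.40, 12.2 and 11.1 with the combination. All 6 entinostat-treated libraries lay below the lowest of the other 6, by a narrow gap from 12.2 to 12.8 CPM, and the anti-PD-1 libraries lay above the controls. The log2 fold change was -1.05 (SE 0.19, adjusted p = 0.0115), held in all 12 leave-one-out fits. Against the controls alone, Mmp15 did not pass in edgeR with entinostat or with the combination. DESeq2 gave -0.76 (adjusted p = 0.0434) for the combination against control. Mmp14, or MT1-MMP, the activator of pro-MMP2, leaned the other way at 15.1 ± 6.22 CPM without and 25.0 ± 6.40 with entinostat (log2 fold change 0.77, SE 0.25, adjusted p = 0.0702; DESeq2 adjusted p = 0.0286). Mmp24, the neuronal MT5-MMP and the most abundant of the 51 genes per length at 8.55 CPM per kb, had a log2 fold change of -0.38 (SE 0.31, adjusted p = 0.442). In the annotation, 13.6% of the exonic bases of Mmp24 overlap BC029722 on the opposite strand, and reads there cannot be told apart. For Mmp16, or MT3-MMP, the value was -0.51 (SE 0.39, adjusted p = 0.406).

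Of the remaining MMPs none passed. Mmp19, a widely expressed secreted enzyme, came closest: its 6 libraries without entinostat read 1.45 to 3.88 CPM and the 6 with it 4.10 to 10.1, with no overlap, for a log2 fold change of 1.01 (SE 0.31, adjusted p = 0.0605; DESeq2 adjusted p = 0.0125). In the annotation, 22.3% of its exonic bases overlap Tmem198b on the opposite strand. Mmp11, the stromelysin of tumour stroma, had a log2 fold change of 0.19 (SE 0.24, adjusted p = 0.637).

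The inhibitors did not pass. Timp1 stood at 6.24 ± 3.54 CPM without and 8.91 ± 3.58 with entinostat (log2 fold change 0.52, SE 0.46, adjusted p = 0.470). Timp2, which also assists MT1-MMP in activating pro-MMP2, stood at 19.3 ± 4.08 and 24.0 ± 5.47 CPM (0.32, SE 0.19, adjusted p = 0.299). Timp3, the matrix-bound inhibitor, stood at 41.8 ± 18.3 and 53.3 ± 13.9 CPM (0.40, SE 0.25, adjusted p = 0.324), and Timp4 at 1.43 ± 0.80 and 2.48 ± 2.22 CPM (0.79, SE 0.62, adjusted p = 0.422; SD, n = 6 each). With the fibroblast score as a covariate the Timp1 value turned to -0.39 (adjusted p = 0.616). Per length of exon, Timp1 (8.53 CPM per kb), Timp3 (5.84) and Timp2 (5.56) ranked 2, 4 and 5 of the 51 genes, whereas Adamts14 (0.84) ranked 22 and Adamts3 (0.19) ranked 41. For Timp3, 21.3% of the exonic bases overlap Syn3 on the opposite strand, and reads there cannot be told apart. The genes with the largest differences were not those with the highest levels.

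The sum over the ADAMTS genes was 98.5 to 161 CPM in the controls, 169 to 207 with anti-PD-1, 184 to 231 with entinostat and 209 to 306 with the combination, so all 9 treated libraries lay above all 3 controls. The share of structural RNA split the same way, at 7.84% to 13.2% of counts in the controls, 20.5% to 36.4% with anti-PD-1, 15.2% to 19.3% with entinostat and 17.7% to 18.0% with the combination, and its part in the sums was not tested. In the highest ADAMTS sums of the control and combination groups, Adamts10 gave 78.4 CPM (control replicate 1) and 149 CPM (combination replicate 3). ADAMTS-like sums were 6.28 to 10.5, 9.28 to 19.3, 15.2 to 23.7 and 23.5 to 40.5 CPM in the same order of groups. For these, the entinostat and combination libraries lay above the controls. The MMP sums overlapped between all groups: 146 to 237, 156 to 207, 179 to 198 and 184 to 241 CPM in the same order. TIMP sums were 40.6 to 77.7, 61.1 to 92.2, 74.4 to 107 and 81.2 to 113 CPM, with the combination libraries above the controls. Mural markers, of pericytes and smooth muscle, scored 4.32 to 4.90 with entinostat and 3.10 to 4.32 without, and 3 of 9 rose (Myh11, Cspg4 and Notch3). The neuroendocrine tumour score was 5.37 ± 0.49 with entinostat and 6.18 ± 0.23 without, and 4 of 12 of its markers fell (Calca, Uchl1, Scg5 and Stmn3). Among 11 fibroblast markers Pdgfra alone rose. The part of these markers in the family sums was not tested.

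**Figure D4:**
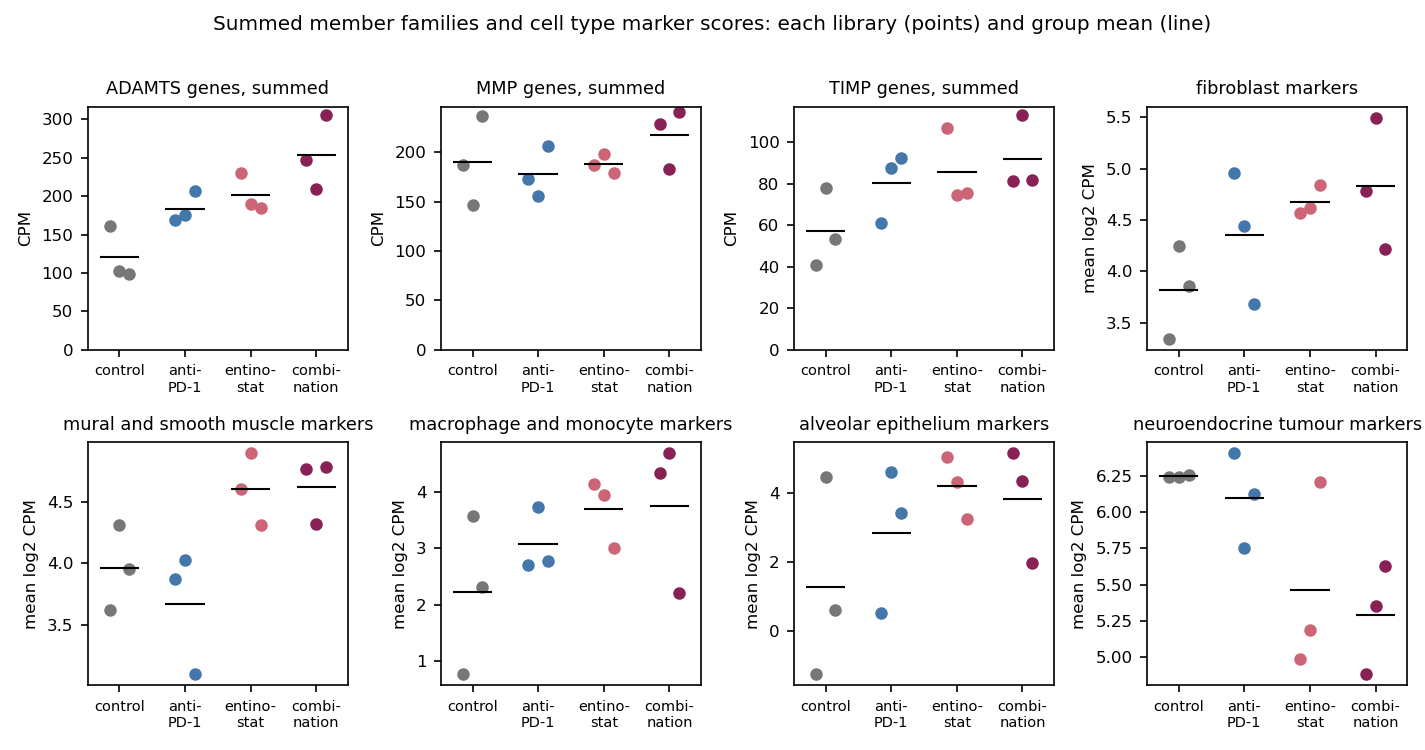
The first 3 panels give the summed CPM of the ADAMTS, MMP and TIMP genes, and the other 5 give marker scores as mean log2 CPM, all by treatment group. Points are libraries and lines group means; the 3 control points of the ADAMTS panel lie below the 9 treated points, and the MMP panel overlaps between groups.

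Single treatments were compared with the same 3 control libraries, which the comparisons therefore share. With entinostat alone 6 of 47 genes passed, 5 higher and 1 lower, beside 5.27% of all genes. These were Adamts14 (log2 fold change 3.06, SE 0.56, adjusted p = 0.0194), Adamts20 (1.92, SE 0.29, adjusted p = 0.0118), Adamts9 (1.95, SE 0.43, adjusted p = 0.0306), Adamtsl5 (2.23, SE 0.53, adjusted p = 0.0378), Adamts6 (1.46, SE 0.38, adjusted p = 0.0467) and, falling, Adamts18 (-3.28, SE 0.85, adjusted p = 0.0473). All 3 entinostat libraries lay above all 3 controls for 17 of the 47, where 13.1% of all genes did so. Fitting the 6 libraries alone left 0 genes past the threshold, as did the alveolar covariate, although over all alternatives the log2 fold change stayed at 2.45 or more for Adamts14, 1.72 or more for Adamts20 and 1.17 or more for Adamts6, and at -2.91 or lower for Adamts18. Leaving out entinostat replicate 2 or 3 left 0 as well, and leaving out control replicate 1 or entinostat replicate 1 left 1. Without control replicate 2, anti-PD-1 replicate 1 or combination replicate 2, 3 genes passed. Without control replicate 2, 1 of them was Adamts3 (log2 fold change 5.3, edgeR adjusted p = 0.0483), which is not among the 6.

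With the combination 8 genes rose and 0 fell, beside 11.7% of all genes in either direction. Adamts14 differed by 3.85 (SE 0.58, adjusted p = 0.00790), Adamts3 by 3.90 (SE 1.10, adjusted p = 0.0432), Mmp8 by 3.57 (SE 0.90, adjusted p = 0.0300) and Adamts9 by 2.36 (SE 0.44, adjusted p = 0.0118). Adamtsl5 (2.46), Adamtsl1 (2.04), Adamts6 (1.59) and Adamts20 (1.59) made up the rest. The combination libraries lay above all controls for 19 of 47 genes, beside 15.2% of all genes. Adamts18 did not pass here, at 2 of 3 combination libraries within the control range. Fitting these 6 libraries alone left 0 calls, the alveolar covariate left 1, and without combination replicate 1 there were 2. Without control replicate 1 or 3 or combination replicate 2 or 3 there were 5. Those without control replicate 1 included Mmp2 (log2 fold change 2.42, edgeR adjusted p = 0.0379), which is not among the 8.

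With anti-PD-1 alone 0 of 47 passed, where 0.00574% of all genes did, that is 1 gene. At an unadjusted p below 0.05 there were 10. The share of all genes at that unadjusted level was not computed, here or for the comparisons below, so these counts have nothing to be set against. DESeq2 called 2, Adamts20 (log2 fold change 0.98, adjusted p = 0.0422) and Adamts9 (1.47, adjusted p = 0.0231). In 9 of the 47 genes the 3 anti-PD-1 libraries lay above the 3 controls, beside 6.79% of all genes: Adamts5, Adamts6, Adamts9, Adamts14, Adamts17, Adamts20, Adamtsl5, Mmp15 and Mmp21. Over the 47 genes the median was 0.61, beside -0.001 over all genes. The main effect of anti-PD-1 also called 0 of 47, as it did 0% of all genes (5 at an unadjusted p below 0.05, 0 with DESeq2), with a median of 0.44.

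Adding a second agent gave no call by edgeR. The combination against anti-PD-1 called 0 of 47 and 0% of all genes, with 12 at an unadjusted p below 0.05. DESeq2 called 2, Adamts14 (2.57, adjusted p = 0.000921) and Mmp15 (-1.38, adjusted p = 0.000956). In edgeR the values were 2.59 (SE 0.55, adjusted p = 0.201) for Adamts14 and -1.36 (SE 0.27, adjusted p = 0.201) for Mmp15. The combination against entinostat called 0 of 47 and 0% of all genes (2 at an unadjusted p below 0.05, 0 with DESeq2). The interaction of the agents, which tests whether the effect of entinostat differed with and without the antibody, called 0 of 47 and 0% of all genes (3 at an unadjusted p below 0.05, 0 with DESeq2). Its smallest p among the 47 was that of Adamts20, -1.30 (SE 0.40, adjusted p = 0.722), whose entinostat effect was thus not shown to differ with the antibody.

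Partners of these proteins, taken as lists by function, held calls in the same comparison, none of them lower; of all genes 3.87% were called higher and 6.74% lower. Among 16 tested genes of procollagen processing and cross-linking 2 rose with entinostat: Plod1, a lysyl hydroxylase of collagen (log2 fold change 1.68, SE 0.22, adjusted p = 0.00555), and Lox, which cross-links collagen and elastin (1.32, SE 0.33, adjusted p = 0.0294). The procollagen C-proteinase Bmp1, which acts at the opposite end of the molecule from the ADAMTS enzymes, had a value of 0.59 (adjusted p = 0.201). Among 12 genes of proteoglycans and other matrix proteins, the latter being Comp, Hapln1, Nid1 and Nid2, 2 rose. These were Hspg2 or perlecan (1.78, SE 0.26, adjusted p = 0.00697) and Vcan or versican (1.68, SE 0.37, adjusted p = 0.0196). Versican is a substrate of Adamts1, Adamts4, Adamts5, Adamts9 and Adamts20. Of 15 microfibril and elastic fibre genes 3 rose: Ltbp2 (1.59, SE 0.29), Fbn2 (1.19, SE 0.30) and Efemp2 (0.94, SE 0.27). Of 16 activators and inhibitors of matrix proteases 1 rose, Lrp1, the receptor that clears several of these enzymes from the matrix (1.14, SE 0.13, adjusted p = 0.00477). Of 12 ADAM proteases, the membrane-bound relatives, 2 rose: Adam15 (0.90, SE 0.20) and Adam17 (0.46, SE 0.12). The list medians were 0.61, 0.92, 0.71, 0.42 and 0.37 in this order, beside 0.02 for all genes, and no gene of these 5 lists passed for the anti-PD-1 main effect.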

How the data were processed

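RNA from flash-frozen, dissected tumour was made into poly(A)-selected libraries, per the labels' protocols. The authors deposited raw counts per gene in 1 table; all 12 columns were used and 0 other columns were left out. The submitters' processing notes name mouse build mm9, the aligner STAR 2.5.4a, the trimmers Trimmomatic 0.36 and Trim Galore, and R 3.5.1 with DESeq2 1.22.2; the annotation and strand setting are not stated. Groups follow the titles, although the tag for treatment lists just the antibody in the combination samples. A single batch label, 2, covers every library. Among low counts, 65.3% to 77.2% per library were even, so both mates of a pair may have been counted.

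The fit used R 4.3.3 and edgeR 4.0.16: filterByExpr (17426 genes kept), TMM factors, a mean per group over all 12 libraries, the robust quasi-likelihood F test and Benjamini-Hochberg adjustment over all tested genes in each of 8 comparisons, with a threshold of 0.05. Log2 CPM used a prior count of 2. DESeq2 1.42.0 was an alternative. The script was tested on simulated data. No 2 libraries of the 66 pairs agreed within sampling noise. At these depths the spread between libraries, not counting, limits precision except for genes of few counts. Exon lengths, positions and overlaps are from GENCODE vM21 and promoters from RefSeq, both on GRCm38, a later build than the counts, and serve for description.

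The genes and lists were chosen with earlier results of these data known. Named genes are those past the threshold in any comparison, the 2 most expressed of each role, the largest rise and fall of a comparison and a set of well-studied genes; other genes were named after their values were seen. Alternatives changed the scaling, filter, tool, libraries and covariates.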

Additional observations from a re-analysis of the deposited data

How the results depend on the processing

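For the main effect of entinostat, 11 genes passed; the count was 15 with DESeq2, 7 with the replicate number as a block, 1 with the alveolar and 4 with the fibroblast covariate, and 4 to 11 over the 12 leave-one-out fits. For entinostat against control (6) it was 13 with DESeq2, 2 with the block, 0 with the alveolar covariate, 2 with the fibroblast covariate, 0 with only the groups compared and 0 to 4 in leave-one-out fits. For the combination against control (8) it was 16 with DESeq2, and 1 and 4 with the alveolar and fibroblast covariates. It was 0 with only the groups compared and 2 to 9 in leave-one-out fits. Only Adamts14 and Adamts20 of the 8 were among those 4, beside Adamts10 (log2 fold change 1.68, edgeR adjusted p = 0.0388) and Adamtsl3 (5.13, adjusted p = 0.0289). Adamts2 and Mmp14 newly passed without anti-PD-1 replicate 3. For anti-PD-1 against control and for the combination against anti-PD-1 (0 each), DESeq2 gave 2. Counts from DESeq2 and from the leave-one-out fits include genes that did not pass in the main fit. The share of all genes that passed is not given beside these counts. The cause was not tested in any of these, and leaving out libraries leaves fewer samples. Same-numbered libraries did not deviate together (18 pairs, correlations from -0.29 to 0.23, median -0.07, and 1 of 12 libraries best with its own number), so the numbers were not taken to pair the samples.

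Of the log2 fold changes of the named genes for entinostat, 584 kept direction and side of the threshold under the alternatives, 72 no longer passed, 9 newly passed and 6 changed sign. Those that changed sign were Adamts10 without control replicate 3 or combination replicate 3 (from -0.27 to 0.34 over the leave-one-out fits), Adamts16 without anti-PD-1 replicate 2 (from -1.001 to 0.94 over those fits), Mmp24 with the alveolar (0.076) and fibroblast covariates (0.17), and Timp1 with the fibroblast covariate (-0.39). None of these genes had passed.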

Other observations

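Adamts16, a protease with roles in the kidney and gonad, stood at 6.71 CPM in anti-PD-1 replicate 2, from 190 counts, and at 0.61 CPM or less in the other 11 libraries. Its log2 fold change for anti-PD-1 against control was 4.81 (SE 1.40, edgeR adjusted p = 0.160), and its value for entinostat was -0.60 (SE 0.91, adjusted p = 0.694). The library concerned also had the largest share of structural RNA, 36.4%.

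Control replicate 1 held the lowest value of 18 of the 47 tested genes, and the share of all genes lowest there was not computed. It held the highest value of 2, Mmp17 and Mmp24, beside 20.2% of all tested genes. The combination libraries held the highest value of 5, 9 and 7 genes (replicates 1, 2 and 3), beside 8.40%, 7.14% and 13.2% of all genes.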
